A study of Homo sapiens with 8 samples.

Results

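Belinostat alone was compared with AsiDNA alone in U87, an established human glioblastoma cell line, by sequencing total RNA after depletion of ribosomal RNA. The comparison took in 4 of the 8 libraries of the study, 2 from cells given 1 µM belinostat for 24 h and 2 from cells under long-term AsiDNA treatment, and every gene with enough counts in them: 13938 of the 58884 genes in the counts table. AsiDNA is a short double-stranded DNA molecule built to look like a broken DNA end, so that DNA-PK and PARP act on the decoy and not on the chromosomes. Belinostat is a hydroxamate inhibitor of the zinc-dependent histone deacetylases. The labels call the cells MTU87 and LTAU87, without saying which libraries came from which, and all were grown in DMEM with 10% serum. They give neither the dose nor the duration of AsiDNA, and they do not say whether the AsiDNA cells received DMSO. The belinostat cells had no long-term AsiDNA treatment, so the agent, the length of treatment and, if the groups came from different ones of these cells, the cells themselves cannot be told apart. The other 4 libraries, 2 from cells given DMSO and 2 from cells given AsiDNA together with 1 µM belinostat for 24 h, were not part of the test. Their levels are set beside the results, because a gene that is higher with belinostat than with AsiDNA may have been raised by belinostat, lowered by AsiDNA, or both. All libraries derive from 1 cell line, and the labels do not say that replicates are separate cultures, so the p-values rest on how far 2 libraries of a group lay apart, and that distance may be technical.

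Histone deacetylases remove acetyl groups from lysines of histones and many other proteins. When they are inhibited, acetylation spreads over chromatin, silent genes can gain transcripts, and many highly transcribed genes lose them. Deacetylase inhibitors are known to stop the cell cycle, and the transcripts of histones, replication factors and mitotic proteins are made mainly in cycling cells. Double-strand breaks are joined by DNA-PK, made of the Ku subunits XRCC6 and XRCC5 and the kinase PRKDC, or are repaired from the sister chromatid by homologous recombination, in which BRCA1 takes part.

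The 4 compared libraries held 8058956 and 6713621 counts for AsiDNA and 8842228 and 6057394 for belinostat, so that 3 counts amounted to 0.346 to 0.4998 CPM, the counts scaled to a common library size. Between replicates, 0.269% of 8179 well-expressed genes differed by more than 1.5-fold for AsiDNA and 0.758% for belinostat. The DMSO replicates stood further apart, with 10.6% of these genes, and they enter no test here. Belinostat libraries carried a different mix of RNA: MALAT1 and NEAT1 together took 12.2% and 13.4% of their counts, against 0.753% and 0.688% of the AsiDNA counts. Protein-coding genes took 85.2% and 83.8% of the belinostat counts and 97.3% and 97.4% of the AsiDNA counts. Sense-intronic genes, which lie within introns of other genes, took 0.128% and 0.142% against 0.0556% and 0.0510%. The other libraries did not sort by belinostat alone. MALAT1 and NEAT1 together took 0.911% and 2.81% with DMSO and 3.12% and 2.06% with the combination. Sense-intronic genes took 0.0570% and 0.113% with DMSO and 0.0561% and 0.0440% with the combination. For these, DMSO replicate 2 lay nearer belinostat and the combination nearer AsiDNA. With the 10 most abundant genes left out of the fit, 5223 genes were still called higher and 5126 lower. Levels below are CPM normalised with TMM factors, and differences are log2 values of belinostat minus AsiDNA, ± the standard error of the fit. CPM does not correct for gene length, so levels are compared only within a gene. Where levels are joined by "against", the AsiDNA libraries come first and the belinostat libraries second. In bulk RNA, fewer cells of a kind and less RNA per cell cannot be told apart.

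At an adjusted p under 0.05 (edgeR's quasi-likelihood test, Benjamini-Hochberg), 10358 of the 13938 genes were called, or 74.3%. Of these, 5223 were higher with belinostat (37.5% of tested genes) and 5135 were lower (36.8%). Close replicates made small differences callable, and 2380 called genes differed by less than 1.5-fold. Called and at least 2-fold higher were 3045 genes (21.8%), and 2286 were at least 2-fold lower (16.4%). At 4-fold the counts were 1218 higher and 507 lower, and at 16-fold 179 and 28, so the largest differences lay mostly on the belinostat side. The median log2 difference over all tested genes was 0.01, and the middle 50% of genes lay between -0.68 and 0.85. Every list count below is to be read against these shares. A list in which 37.5% of genes are higher and 36.8% lower is like the rest of the genes. The TMM scaling largely sets the centre near 0, so a change shared by all genes would not show. Scaled by library size only, 5014 genes were higher and 5332 lower, with a median of -0.03. The shares changed with gene type and level. Of protein-coding genes, 33.1% were called higher and 41.7% lower. Of genes with a mean log2 CPM of 6 to 8 the shares were 31.3% and 51.0%, and over 8 they were 31.1% and 57.6%. A list of such genes is to be read against those shares.

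**Figure D1:**
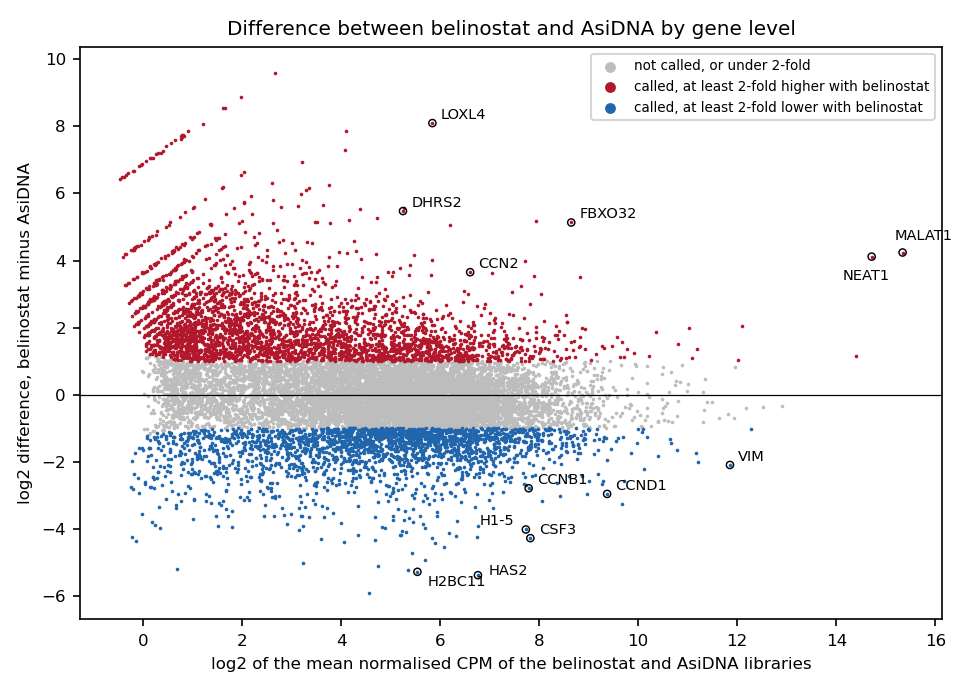
Each point is 1 of 13938 tested genes. The horizontal axis is the log2 of its mean normalised CPM and the vertical axis its log2 difference, belinostat minus AsiDNA. Red and blue mark genes called and at least 2-fold higher (3045) or lower (2286) with belinostat. The largest differences among low genes lie above 0, MALAT1 and NEAT1 lie alone at the upper right, and HAS2 and the histone genes H2BC11 and H1-5 mark the lower edge.

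The direction of the difference went with the kind of gene. Among 11706 protein-coding genes, 15.8% were called and at least 2-fold higher and 17.9% at least 2-fold lower, with a median of -0.12. Among 502 lincRNA genes the shares were 54.0% and 10.2%, among 533 antisense genes 53.1% and 6.19%, and among 200 sense-intronic genes 73.0% were higher and 3 genes lower. Whether the counting used the strand is not given in the sources used here, so reads of antisense and intronic genes may belong to the genes they overlap. Antisense genes together took 0.355% and 0.339% of the AsiDNA counts and 0.680% and 0.706% of the belinostat counts. Their share was 0.330% and 0.521% with DMSO and 0.384% and 0.345% with the combination. With only genes whose mean over the 4 libraries was at least 8 CPM, a limit chosen after seeing the data, the shares higher were 11.6% of 9586 protein-coding, 49.1% of 112 lincRNA, 48.9% of 94 antisense and 63.6% of 22 sense-intronic genes. Level went with direction too. Of 1343 genes with a mean log2 CPM under 1, 60.3% were at least 2-fold higher and 10.8% at least 2-fold lower, while of 524 genes over 8 the shares were 9.54% and 19.5%. A gene of low level could pass the count filter through its belinostat libraries alone, so the filter can set part of the share among low genes, and of the shares of the noncoding types above, most of whose genes are low.

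**Figure D2:**
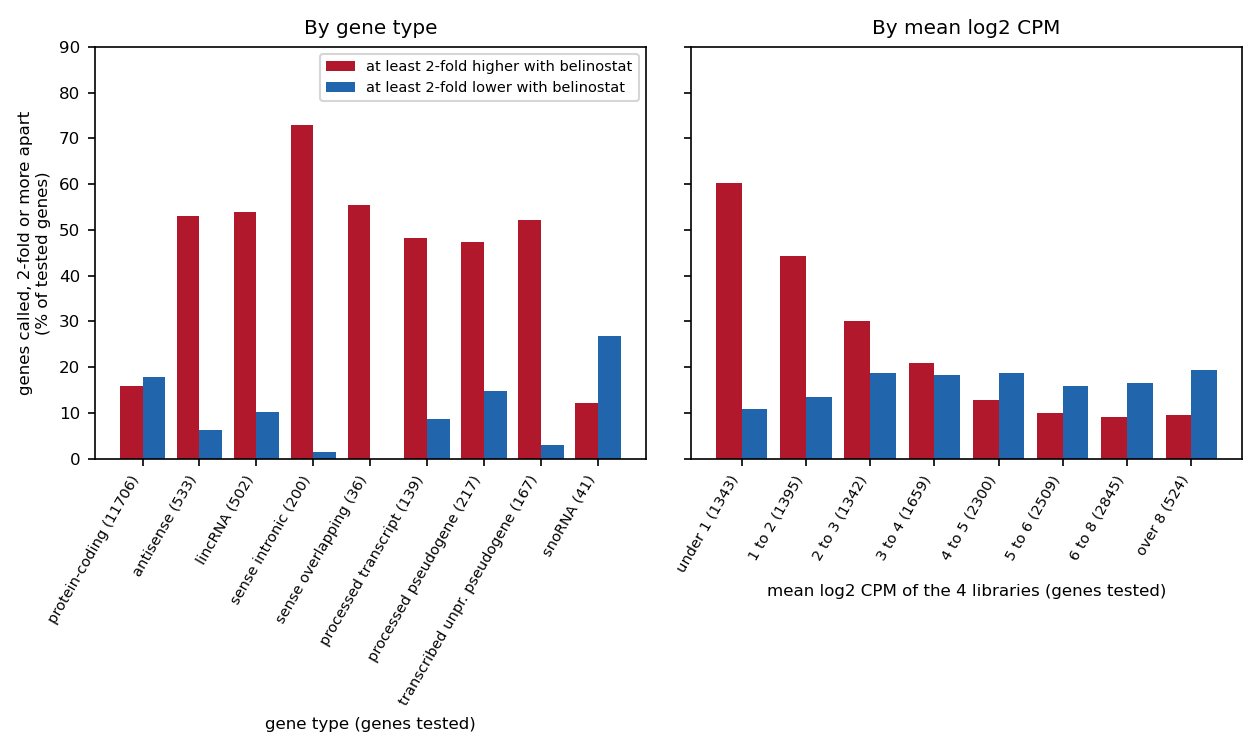
Share of tested genes that were called and at least 2-fold higher (red) or lower (blue) with belinostat than with AsiDNA, by gene type (left) and by the mean log2 CPM of the 4 libraries (right), with the number of genes tested in parentheses. The red bars reach 73.0% for sense-intronic genes against 15.8% for protein-coding genes, stand at 60.3% under a mean log2 CPM of 1 and 9.54% over 8, and are below blue for snoRNA genes (12.2% against 26.8%).

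The largest rises among well-expressed named genes included genes that were close to silent with AsiDNA. LOXL4 (ENSG00000138131, chr10:98247690-98268250 in GRCh38), a lysyl oxidase-like enzyme that crosslinks collagen, stood at 0.122 and 0.735 CPM with AsiDNA, from 1 and 5 counts, and at 116 and 113 CPM with belinostat. The log2 difference was 8.10 ± 0.23 (adjusted p = 2.51e-38), and the DMSO libraries lay at 0.820 and 0.621 CPM and the combination at 152 and 153. DHRS2, a mitochondrial dehydrogenase known as a strong responder to deacetylase inhibitors, had 1.22 and 2.21 against 86.8 and 62.0 CPM (5.48 ± 0.21, adjusted p = 1.18e-31). SYP, the synaptic vesicle protein synaptophysin, stood at 1.22 and 1.47 with AsiDNA and 53.6 and 50.1 with belinostat (5.27 ± 0.22), and its combination libraries reached 66.0 and 75.4. For these 3 genes the DMSO libraries lay with AsiDNA, between 0.621 and 1.97 CPM, and every belinostat and combination library was at least 10 times higher. The AsiDNA libraries alone would not have carried these 3 genes past the count filter. They passed it through the belinostat side, which sets their direction, and the sizes of their differences are uncertain.

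FBXO32, which codes for the muscle-atrophy ubiquitin ligase atrogin-1, had 23.3 and 20.9 CPM with AsiDNA and 793 and 767 with belinostat, a log2 difference of 5.14 ± 0.10 (adjusted p = 4.01e-46). SLC12A8, a solute carrier of the cation-chloride transporter family, had 3.66 and 4.999 against 171 and 115 CPM (5.07 ± 0.16). The focal adhesion protein TES had 5.13 and 4.12 against 87.7 and 80.5 CPM (4.17 ± 0.16), and its combination libraries, at 87.8 and 98.3, were as high as belinostat alone. FER1L4, a unitary pseudogene of the ferlin family that is transcribed without a functional protein, had 13.9 and 12.5 against 443 and 517 CPM (5.17 ± 0.11). Its reads could be shared with other ferlin genes, so this value is uncertain. The lipid flippase ATP8A1 (4.29 ± 0.22), the hearing-related scaffold PDZD7 (4.23 ± 0.23) and the lipid-transfer protein STARD5 (4.21 ± 0.19) completed the protein-coding genes of this group. The 2 remaining were the nuclear RNAs MALAT1, at 4363 and 3973 CPM with AsiDNA and 76539.9 and 80974 with belinostat (4.24 ± 0.14), and NEAT1, at 3046 and 2814 against 47566 and 54132 (4.12 ± 0.13). MALAT1 resides in nuclear speckles and NEAT1 is the scaffold of paraspeckles. Their DMSO replicates differed, at 5471 and 13149 CPM for MALAT1 and 3588 and 13726 for NEAT1, and the combination libraries lay at 22052 and 15359.7 and 11269.7 and 6926, below belinostat alone.

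**Figure D3:**
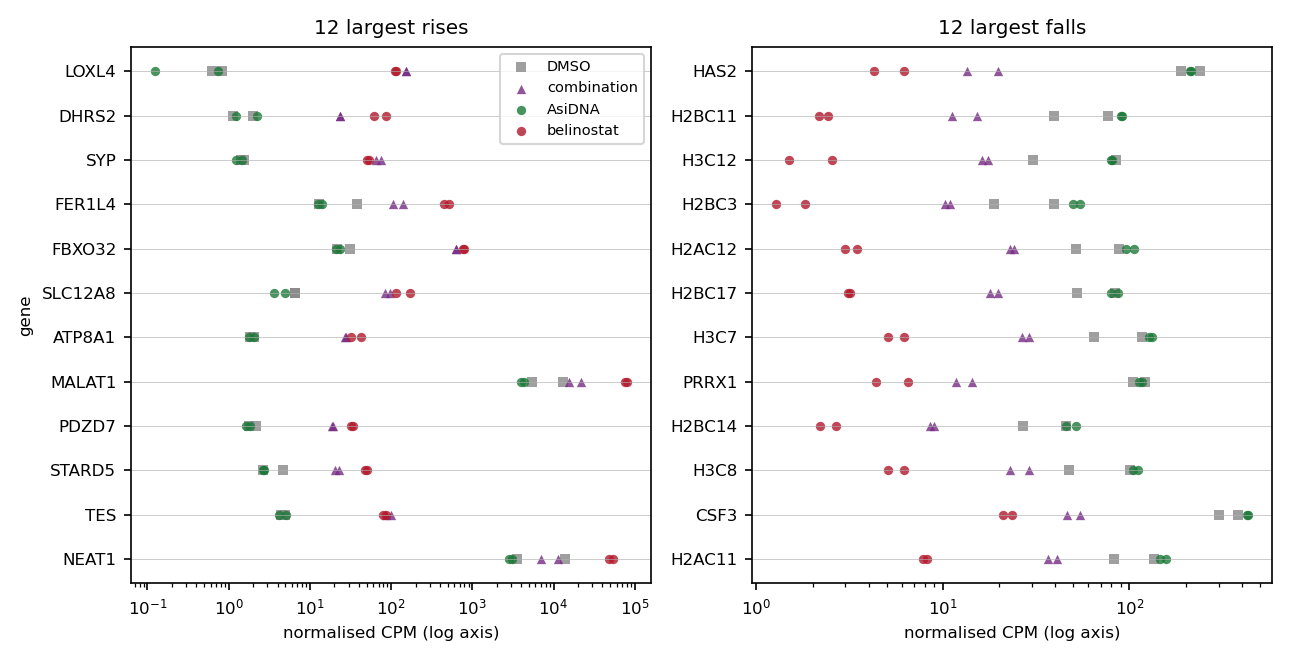
Normalised CPM (log axis) of the 12 largest rises (left) and 12 largest falls (right) from AsiDNA to belinostat, 1 point per library and 2 libraries per group: AsiDNA green circles, belinostat red circles, DMSO grey squares, combination purple triangles. By the rule that chose the genes the red and green points do not overlap. Grey squares lie near green for most genes, and purple triangles lie nearer red for genes such as LOXL4, SYP, TES and HAS2.

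Among the 12 largest falls, 9 were histone genes and the others were HAS2, PRRX1 and CSF3. HAS2, the synthase that extrudes hyaluronan from the cell surface, had 213 and 211 CPM with AsiDNA and 4.27 and 6.16 with belinostat. This was the largest fall by the rule, at -5.38 ± 0.13 (adjusted p = 1.93e-41), and the DMSO libraries lay at 237 and 189 CPM and the combination at 13.5 and 19.8. PRRX1, a homeobox factor of mesenchymal cells, had 116 and 112 against 4.38 and 6.497 CPM (-4.43 ± 0.15), with DMSO at 121 and 105 and the combination at 11.8 and 14.3. CSF3, the granulocyte growth factor G-CSF, had 434 and 427 against 21.1 and 23.5 CPM (-4.28 ± 0.10), with DMSO at 380.0 and 302 and the combination at 46.4 and 54.0. In all 3, AsiDNA and DMSO lay within 1.5-fold of each other, and the combination stood above belinostat alone.

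The deacetylases that belinostat binds, and their relatives, were not shifted in 1 direction. Of 17 deacetylases and sirtuins tested, 9 were higher with belinostat and 6 lower, with a median log2 difference of 0.38. HDAC3, the catalytic subunit of the NCoR and SMRT corepressors, had 71.3 and 75.7 CPM with AsiDNA and 212 and 187 with belinostat (1.44 ± 0.09). HDAC8 had 17.8 and 20.1 against 57.3 and 57.0 CPM (1.59 ± 0.13), and the tubulin deacetylase HDAC6 had 61.8 and 59.8 against 103 and 106 (0.77 ± 0.09). The NAD-dependent enzymes moved apart, with nucleolar SIRT7 higher (1.67 ± 0.12) and SIRT1 lower (-1.61 ± 0.18). HDAC1 and HDAC2, the catalytic pair of the NuRD and Sin3 complexes, differed little, at 79.0 and 73.8 against 63.4 and 61.0 CPM for HDAC1 (-0.30 ± 0.10) and 124 and 128 against 104 and 103 for HDAC2 (-0.29 ± 0.09). Both were called, but HDAC1 had an adjusted p of 0.134 without AsiDNA replicate 1 (log2 difference -0.24) and HDAC2 one of 0.0532 without AsiDNA replicate 2 (-0.27).

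Acetyltransferases, which add the marks, had a median of -0.21, with 4 of 15 higher, among them KAT2A (0.62 ± 0.13), and 8 lower, among them KAT6B (-1.24 ± 0.13) and GTF3C4 (-1.23 ± 0.09). Among readers of acetylation and elongation factors, AFF1 of the super elongation complex was higher (56.7 and 59.7 against 116 and 105 CPM, 0.93 ± 0.09). MEPCE, which caps and guards the 7SK RNA that holds the elongation kinase in reserve, was lower (57.3 and 58.7 against 7.50 and 9.50 CPM, -2.79 ± 0.15). The list of 14 readers and elongation factors held 7 higher and 6 lower, with a median of 0.12.

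Textbook responders to deacetylase inhibitors split in both directions, 9 higher and 8 lower of 18 tested. Beside DHRS2, the glutaredoxin GLRX was higher (66.8 and 64.8 against 182 and 193 CPM, 1.51 ± 0.09). CDKN1A, the CDK inhibitor p21 that is usually listed among genes raised by such inhibitors, was lower: 123 and 129 CPM with AsiDNA, 49.2 and 42.6 with belinostat, 129 and 105 with DMSO and 86.9 and 84.4 with the combination (-1.44 ± 0.10, adjusted p = 2.18e-20). All 4 AsiDNA and DMSO libraries lay above both belinostat libraries, with the combination between.

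Replication-dependent histone genes formed the group with the lowest median. They sit in clusters, lack introns, end in a stem-loop without a poly(A) tail, and are transcribed in S phase. Of 69 listed, 52 were tested, 50 were lower and none higher, all 50 at least 2-fold, against 16.4% of all tested genes, and the median was -3.64. The 2 not called were H2AC25 (-0.18 ± 0.23) and H4C16 (-0.17 ± 0.21), both picked out here by their values. All 52 tested genes had at least 10 counts in both AsiDNA libraries, but only 46 had them in both belinostat libraries. Some could therefore have passed the count filter through the AsiDNA side alone, which would set their direction. Together the histone genes took 0.451% and 0.473% of the AsiDNA counts and 0.0486% and 0.0459% of the belinostat counts. DMSO stood at 0.415% and 0.249% and the combination at 0.159% and 0.175%.

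H2BC11 (ENSG00000124635, chr6:27125897-27132750) had 90.3 and 91.4 CPM with AsiDNA, 2.42 and 2.17 with belinostat, 77.0 and 39.2 with DMSO and 11.1 and 15.2 with the combination (-5.28 ± 0.17, adjusted p = 4.41e-35). The linker histone gene H1-5 had 398 and 403 CPM with AsiDNA and 23.2 and 26.5 with belinostat (-4.02 ± 0.10, adjusted p = 9.99e-42). H1-5 was not among the 12 largest falls. Those with H2BC11 among them were H3C12 (-5.23 ± 0.19), H2BC3 (-5.10 ± 0.21), H2AC12 (-4.93 ± 0.16), H2BC17 (-4.73 ± 0.17), H3C7 (-4.54 ± 0.14), H2BC14 (-4.34 ± 0.20), H3C8 (-4.28 ± 0.14) and H2AC11 (-4.23 ± 0.13). Histone genes of 1 family are nearly identical in sequence, and how reads that fit several copies were counted is not given in the sources used here, so values of single genes are uncertain.

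These genes share promoter elements, and the 250 bases before the start of H2BC11 (RefSeq, GRCh38.p14, chr6:27132796-27133045, minus strand) are printed because its fall was the largest among the histone genes whose mean level passed the rule for the 12 largest falls. Capitals mark 4 CCAAT boxes, of which 2 read ATTGG because they lie on the other strand, the octamer ATTTGCAT, and TATAAA on either strand. The run TTTATAAA holds overlapping matches on both strands.
H2BC11: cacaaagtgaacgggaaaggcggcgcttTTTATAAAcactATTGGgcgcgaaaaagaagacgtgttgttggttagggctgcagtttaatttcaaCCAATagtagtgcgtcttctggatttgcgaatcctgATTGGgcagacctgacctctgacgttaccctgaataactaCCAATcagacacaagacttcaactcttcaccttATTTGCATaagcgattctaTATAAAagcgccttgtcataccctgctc
Of 60 listed histone genes with a 300-base RefSeq promoter window (250 bases before the start and 50 after), 39 held TATAAA on either strand, or 65.0%, against 11.95% of all 27305 windows. CCAAT stood in 50 of the 60, or 83.3%, against 35.7%. The octamer stood in 14 of 18 windows of H2B genes, or 77.8%, and in 12 of 42 of the other histone genes, or 28.6%, against 1.80% of all windows. The octamer was added to the search after the windows had been read. A match of letters is a description and does not show that a factor binds.

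Histones that are made throughout the cycle went both ways. H2AJ was higher (0.244 and 1.91 against 5.31 and 5.66 CPM, 2.42 ± 0.44), with an adjusted p of 0.0619 by DESeq2. It passed the count filter through the belinostat side alone, which sets its direction. MACROH2A1 was slightly higher (0.36 ± 0.08). H2AX, which is phosphorylated around breaks, was lower (53.4 and 65.6 against 8.996 and 12.5 CPM, -2.49 ± 0.15), and so were H2AZ1 (-2.18 ± 0.08) and H3-3B (-1.12 ± 0.08). In all, 3 of 10 replacement histones were higher and 6 lower.

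Genes of each cell-cycle list were mostly lower with belinostat. All of the 50 listed G2 and mitosis genes were tested and lower, 46 of them at least 2-fold, with a median of -1.72. MYBL2, a transcription factor of cycling cells, had 189 and 193 CPM with AsiDNA and 19.5 and 17.8 with belinostat (-3.34 ± 0.10, adjusted p = 4.95e-36). CCNB1, the mitotic cyclin B1, had 383 and 389 against 55.0 and 56.6 CPM (-2.79 ± 0.09), and the survivin gene BIRC5 had 272 and 274 against 39.7 and 33.0 (-2.89 ± 0.09). The proliferation antigen MKI67 had 558 and 599 CPM with AsiDNA and 182 and 170.1 with belinostat (-1.71 ± 0.08), with the DMSO libraries at 764 and 829 and the combination at 175 and 148. AsiDNA libraries lay below DMSO for MKI67 and the combination lay with belinostat, and for each of the 4 genes both AsiDNA libraries lay above both belinostat libraries.

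Of 48 replication and nucleotide-supply genes, 45 were lower and none higher, with a median of -1.33. RRM2, the regulated subunit of ribonucleotide reductase, had 898 and 861 CPM with AsiDNA and 144 and 152 with belinostat (-2.57 ± 0.08). Thymidine kinase TK1 was lower as well (179.7 and 204 against 42.8 and 39.0 CPM, -2.22 ± 0.10). Among G1 cyclins, RB and E2F genes, 18 of 23 were lower. CCND1, cyclin D1, had 1195 and 1154 CPM with AsiDNA, 141 and 162 with belinostat, 1244 and 947 with DMSO and 434 and 439 with the combination (-2.96 ± 0.09, adjusted p = 2.47e-37). E2F1 (-1.89 ± 0.10) and its partner TFDP1 (-2.12 ± 0.09) were lower, while the quiescence-linked pocket protein RBL2 (129 and 128 against 238 and 256 CPM, 0.95 ± 0.08) and the repressor E2F4 (0.55 ± 0.09) were higher. Of the 4 CDK inhibitors tested, CDKN1A, CDKN3 (-1.62 ± 0.10) and CDKN2D (-0.82 ± 0.14) were lower and CDKN1B, the p27 gene, was not called (0.01 ± 0.12).

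Promoters of mitotic genes carry CCAAT boxes and a cell-cycle element, CHR, by which they are repressed outside G2 and mitosis. CCNB1 and CCNB2 are printed because they code for the mitotic cyclins B1 and B2. CCNB2 was chosen after its promoter was read (152 and 143 CPM with AsiDNA, 24.6 and 29.2 with belinostat, -2.47 ± 0.10). The 250 bases before each start are from RefSeq (GRCh38.p14, plus strand), chr5:69166900-69167149 for CCNB1 and chr15:59104896-59105145 for CCNB2, with CCAAT and the CHR letters TTTGAA in capitals.
CCNB1: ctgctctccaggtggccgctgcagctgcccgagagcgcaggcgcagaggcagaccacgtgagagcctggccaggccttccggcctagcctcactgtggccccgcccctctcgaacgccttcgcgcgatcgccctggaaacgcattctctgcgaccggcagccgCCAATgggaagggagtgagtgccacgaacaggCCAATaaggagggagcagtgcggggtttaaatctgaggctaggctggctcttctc
CCNB2: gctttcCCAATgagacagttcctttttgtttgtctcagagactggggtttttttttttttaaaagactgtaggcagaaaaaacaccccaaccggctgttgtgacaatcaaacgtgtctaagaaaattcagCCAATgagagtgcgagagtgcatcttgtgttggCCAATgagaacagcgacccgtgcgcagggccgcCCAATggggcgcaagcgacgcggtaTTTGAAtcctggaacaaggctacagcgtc
The CCNB1 stretch holds 2 CCAAT boxes, and the CCNB2 stretch holds 4 and 1 CHR match. Over the 42 mitosis genes with a window, CCAAT on either strand stood in 33 (78.6%, against 35.7% of all 27305 windows), and TTTGAA in 28 (66.7%, against 15.4%). Of 41 replication genes with a window, 20 held an E2F site written as TTTGGCGC, TTTCGCGC or TTTCCCGC (48.8%, against 2.79%).

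**Figure D4:**
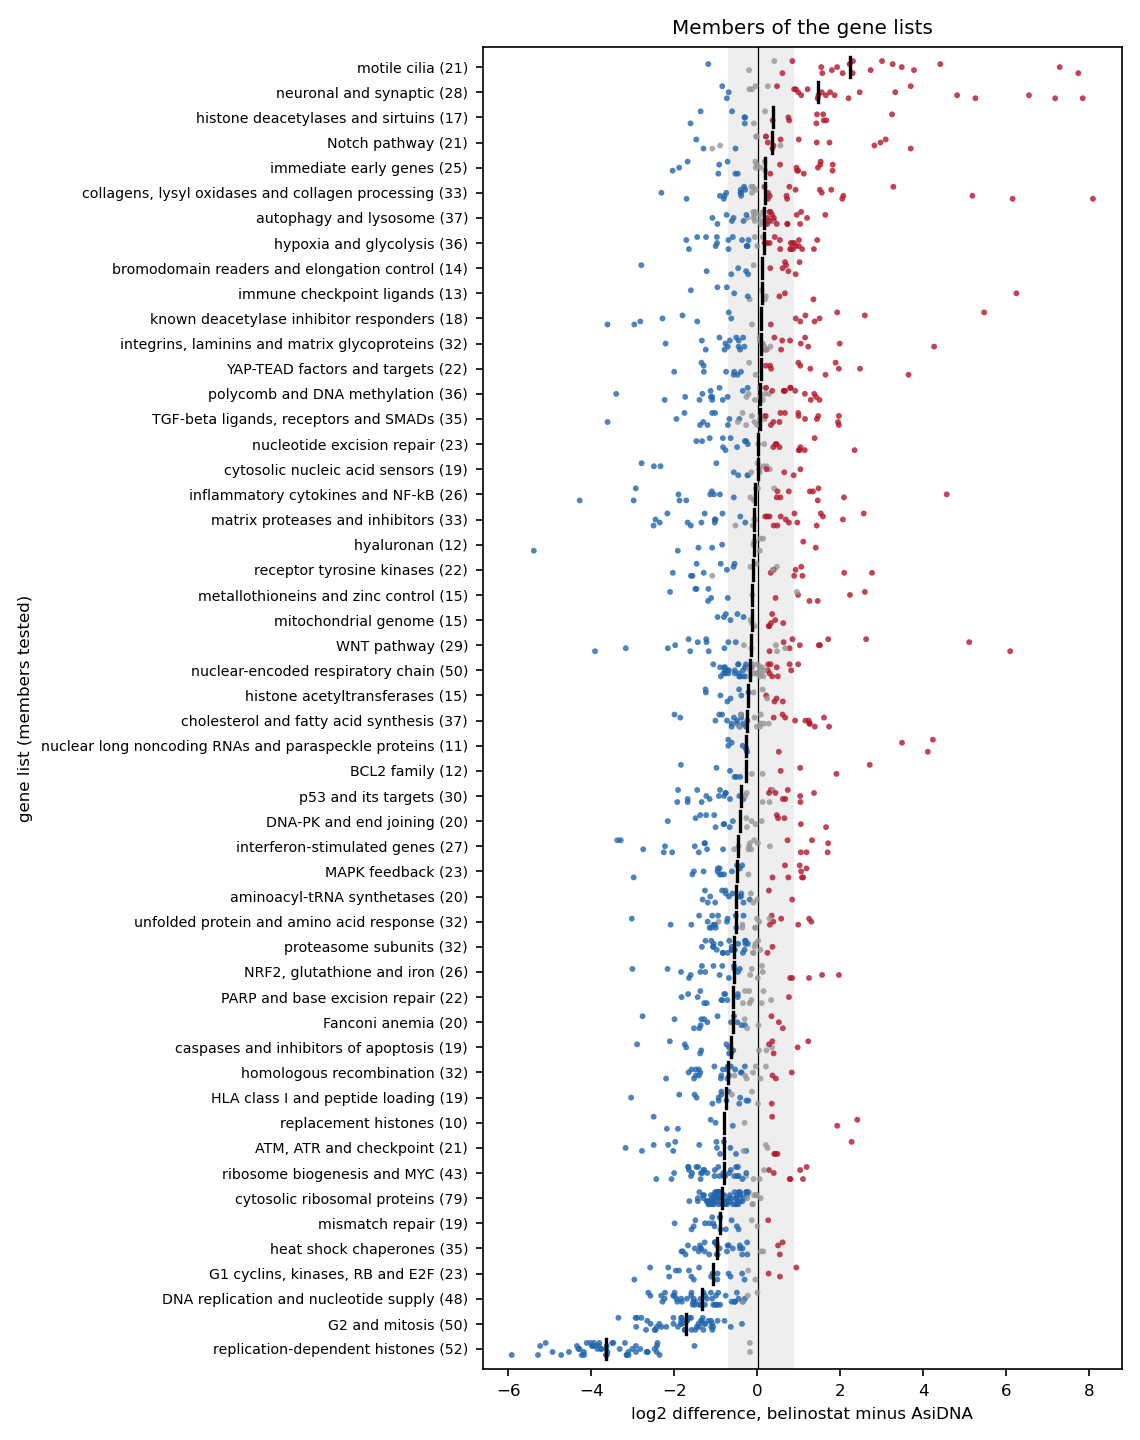
Log2 difference, belinostat minus AsiDNA, of the tested members of each gene list with at least 10 tested members, ordered by median (black bar). Red and blue points were called higher and lower with belinostat and grey points were not called. The grey band is the middle 50% of all tested genes, from -0.68 to 0.85, and the line their median. Histones, mitosis and replication genes lie at the bottom, and cilia and neuronal genes at the top.

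The enzymes that AsiDNA engages were lower with belinostat than with AsiDNA at the RNA level. PRKDC had 1201 and 1164 CPM with AsiDNA, 835 and 659 with belinostat, 1193 and 1103 with DMSO and 972 and 1023 with the combination (-0.66 ± 0.09, adjusted p = 7.02e-10). XRCC5 (Ku80) had 659 and 638 against 232 and 232 CPM (-1.48 ± 0.08) and XRCC6 (Ku70) had 331 and 343 against 151 and 137 (-1.23 ± 0.08). PARP1, the sensor of strand breaks, had 158 and 149.96 CPM with AsiDNA, 63.5 and 49.3 with belinostat, 159 and 136 with DMSO and 88.6 and 98.3 with the combination (-1.43 ± 0.10). For all 4 genes both AsiDNA libraries were above both belinostat libraries, and DMSO replicate 1 lay within 1.1-fold of the AsiDNA mean. DMSO replicate 2 lay lower for XRCC5 and XRCC6, where the DMSO libraries had 629.8 and 467 and 337 and 239.9 CPM.

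The whole end-joining list, with PRKDC, XRCC5 and XRCC6 in it, was mixed, with 5 of 20 higher and 10 lower. TP53BP1, which shields broken ends from resection, was higher (177 and 178 against 382 and 356 CPM, 1.06 ± 0.08), and so was the ligase LIG4 (0.51 ± 0.10), whereas the shieldin subunit SHLD2 was lower (43.0 and 36.8 against 8.07 and 10.2, -2.15 ± 0.16). In homologous recombination, 22 of 32 genes were lower and 3 higher, with a median of -0.69. BRCA1 had 110.3 and 105 CPM with AsiDNA and 37.9 and 39.5 with belinostat (-1.48 ± 0.10), and the end-resection factors NBN (-1.65 ± 0.10) and RBBP8 (-1.40 ± 0.09) were lower as well.

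Mismatch repair had 16 of 19 genes lower and 1 higher (median -0.90), among them the sliding clamp PCNA (156 and 146 against 38.2 and 37.6 CPM, -1.99 ± 0.10), a gene shared with replication. The Fanconi anemia list had 14 of 20 lower, among them the deubiquitinase USP1 (-1.99 ± 0.09) and FANCI (-1.34 ± 0.09). Base excision repair had 13 of 22 lower and 1 higher. Checkpoint genes were lower in 14 of 21 cases, and the fork-protection factors TIMELESS (56.8 and 55.0 against 6.57 and 5.66 CPM, -3.17 ± 0.16) and CLSPN (-2.78 ± 0.12) were among them. ATM was higher (0.44 ± 0.08), and so was RAD9A of the checkpoint clamp (8.92 and 8.38 against 46.0 and 37.6 CPM, 2.28 ± 0.16). Nucleotide excision repair was evenly split, with 10 of 23 higher and 11 lower and a median of 0.03. ERCC5, the nuclease XPG, was higher (1.39 ± 0.14), as was ERCC6 (1.15 ± 0.09), and the damage sensor DDB2, a p53 target, was lower (-1.14 ± 0.12). Whether repair pathways differ from each other was not tested.

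Of 30 tested genes of p53 and its targets, 16 were lower and 9 higher, with a median of -0.38. This split was near that of like genes. Of all protein-coding genes 41.7% were lower and 33.1% higher. Of genes with a mean log2 CPM of 6 to 8, 51.0% were lower and 31.3% higher. MDM2, the ubiquitin ligase that is both a target and an inhibitor of p53, had 193 and 197 CPM with AsiDNA, 58.6 and 63.8 with belinostat, 194 and 159.8 with DMSO and 86.9 and 98.8 with the combination (-1.68 ± 0.09). The exonuclease AEN was lower (-1.92 ± 0.12), while PLK2 (26.02 and 23.8 against 66.4 and 62.8 CPM, 1.37 ± 0.12) and CYFIP2 (1.05 ± 0.11) were higher. For CDKN1A and AEN the AsiDNA and DMSO libraries overlapped.

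Genes of cell death did not share a direction. Of 12 tested BCL2-family genes 4 were higher and 6 lower. The BH3-only genes BMF (2.44 and 3.53 against 22.7 and 15.5 CPM, 2.72 ± 0.25) and BCL2L11, the BIM gene (3.79 and 3.68 against 14.8 and 13.3, 1.91 ± 0.24), were higher. The protective BCL2 (14.05 and 13.2 against 3.92 and 3.66 CPM, -1.84 ± 0.24) and MCL1 (-0.496 ± 0.08) were lower, and protective BCL2L2 was higher (0.57 ± 0.11). Among caspases and their inhibitors, 11 of 19 were lower, including the inhibitors XIAP (106 and 104 against 30.9 and 31.7 CPM, -1.74 ± 0.10) and BIRC2 (-1.35 ± 0.09), and 5 were higher, including their antagonist DIABLO (1.23 ± 0.21).

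Double-stranded DNA in the cytosol is sensed by CGAS, which signals through STING1 to interferon. Neither sensor could be tested, since CGAS had 0 and 0 counts with AsiDNA and 1 and 2 with belinostat and STING1 had 2 and 1 against 3 and 0. IFI16, another DNA sensor, had 67.1 and 64.8 CPM with AsiDNA and 55.7 and 58.8 with belinostat and was not called (-0.21 ± 0.10, adjusted p = 0.0626). Of 19 sensors and their regulators tested, 4 were higher, including DDX41 (1.04 ± 0.09), and 7 lower, including the kinase EIF2AK2 (-0.98 ± 0.09) and RNASEH2A (-2.33 ± 0.27). Interferon-stimulated genes were higher in 6 and lower in 12 of 27 cases (median -0.45). Of the 27, 25 had at least 10 counts in both AsiDNA libraries and 22 in both belinostat libraries, so the filter could set some directions. OAS3 had 18.3 and 14.3 CPM with AsiDNA and 1.499 and 1.67 with belinostat (-3.37 ± 0.29), and DDX60 was lower as well (-2.25 ± 0.26). STAT2 was higher (80.0 and 71.2 against 238 and 256 CPM, 1.70 ± 0.09), as were IFI6 (1.71 ± 0.20) and IRF1 (0.73 ± 0.12).

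Antigen presentation by HLA class I was mostly lower, 15 of 19 genes, with a median of -0.74. The peptide trimmer ERAP1 had 95.2 and 94.2 CPM with AsiDNA and 31.5 and 35.5 with belinostat (-1.51 ± 0.11), and tapasin, TAPBP, had 90.4 and 102 against 36.3 and 33.2 (-1.46 ± 0.11). Of 7 tested ligands of the NK receptor NKG2D, 3 were higher and 2 lower (median 0.39): RAET1G was higher (1.10 and 1.62 against 8.77 and 8.50 CPM, 2.68 ± 0.34), MICA was higher (36.2 and 35.9 against 103 and 91.5 CPM, 1.44 ± 0.10), MICB lower (10.0 and 9.12 against 1.61 and 2.67, -2.21 ± 0.31), and ULBP3 lower (-1.12 ± 0.26). The combination libraries had 107 and 108 CPM of MICA, slightly above belinostat alone. The checkpoint ligand VSIR stood at 0.366 and 0.294 CPM with AsiDNA and 26.1 and 27.5 with belinostat (6.25 ± 0.33), and CD274, the PD-L1 gene, at 10.3 and 10.0 against 16.1 and 16.2 (0.67 ± 0.19). The AsiDNA level of VSIR rests on 3 and 2 counts. VSIR and RAET1G passed the count filter through the belinostat side alone, which sets their direction, and the sizes of their differences are uncertain. PVR (-0.96 ± 0.10), the do-not-eat-me signal CD47 (-0.73 ± 0.08) and NT5E (-0.55 ± 0.08) were lower.

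Cytokines and NF-kB factors went both ways, 10 higher and 11 lower of 26. The chemokine CCL20 had 1.95 and 1.03 against 39.9 and 33.3 CPM (4.57 ± 0.23). It passed the count filter through the belinostat side alone, which sets its direction, and the size of its difference is uncertain. The NF-kB inhibitor TNFAIP3 (24.6 and 26.02 against 72.7 and 68.1, 1.48 ± 0.12) and the NF-kB regulator NFKBIZ (1.27 ± 0.08) were higher. Beside CSF3, IL11 was lower (187 and 195 against 20.6 and 28.8 CPM, -2.98 ± 0.11), and so was IL1B (284 and 287 against 75.2 and 78.1, -1.90 ± 0.08). For IL11 the DMSO libraries, at 321 and 287 CPM, lay above both AsiDNA libraries.

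Genes of protein synthesis and folding were mostly lower. Of 79 cytosolic ribosomal proteins, 72 were lower and none higher, 24 at least 2-fold, with a median of -0.85. Short protein-coding genes with a mean log2 CPM of at least 5 were often lower too. Of 301 such genes spanning under 5 kb, 65.8% were lower and 30.2% at least 2-fold lower, with a median of -0.58. Of those spanning 5 to 20 kb, 54.1% were lower and 18.5% at least 2-fold lower. RPL10 had 453 and 483 CPM with AsiDNA and 139 and 164 with belinostat (-1.63 ± 0.08), and RPSA and RPS23 were lower to a like degree (-1.43 and -1.43). Ribosomal protein genes have many processed pseudogenes, so their counts are uncertain. Among ribosome-biogenesis and MYC-network genes, 32 of 43 were lower, among them nucleolin, NCL (670.3 and 645 against 117 and 128 CPM, -2.43 ± 0.08), and 7 were higher, including the MYC antagonists MNT (1.20 ± 0.12), MXD1 (1.11 ± 0.15) and MXI1 (1.04 ± 0.10). MYC itself had 159 and 157 CPM with AsiDNA and 82.0 and 83.6 with belinostat (-0.93 ± 0.09). Chaperones were lower in 30 of 35 cases, among them HSPA8 (2133 and 2075 against 643 and 543 CPM, -1.82 ± 0.09) and the mitochondrial chaperonin HSPD1 (-1.73 ± 0.08). The endoplasmic reticulum chaperone HSPA5 was higher (512 and 475 against 778 and 664 CPM, 0.55 ± 0.08). Proteasome subunits were lower in 24 of 32 cases (median -0.55) and aminoacyl-tRNA synthetases in 15 of 20 (median -0.502).

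In glycolysis and hypoxia 18 of 36 genes were higher and 15 lower: the hypoxia-responsive NDRG1 (1254 and 1343 against 3600.0 and 3111 CPM, 1.37 ± 0.09) and PFKFB4 (1.45 ± 0.08) were higher, while the carbonic anhydrase CA9 (421 and 465 against 135 and 137 CPM, -1.71 ± 0.08), the monocarboxylate carrier SLC16A1 (-1.64 ± 0.08) and the glycolytic enzyme TPI1 (-1.44 ± 0.08) were lower. In sterol and fatty acid synthesis the regulators SREBF1 (76.1 and 83.7 against 269 and 218 CPM, 1.61 ± 0.09) and INSIG2 (1.74 ± 0.09) were higher and the enzymes ACLY (-1.01 ± 0.08) and FASN (-0.73 ± 0.08) lower. Autophagy and lysosome genes were higher in 16 and lower in 7 of 37 cases, with the starting kinase ULK1 higher (29.7 and 36.5 against 104 and 102 CPM, 1.65 ± 0.11) and the cargo receptor SQSTM1 lower (-0.96 ± 0.08). Redox genes were lower in 16 of 26 cases (median -0.55). KEAP1, which targets NRF2 for destruction, was lower (78.2 and 76.3 against 9.92 and 9.16 CPM, -3.01 ± 0.14), as was the NRF2 target HMOX1 (-1.84 ± 0.09), while GCLC (1.57 ± 0.11) and AKR1B1 (828 and 863 against 3425 and 3220.4 CPM, 1.97 ± 0.09) were higher. Respiratory-chain genes of the nucleus were lower in 23 and higher in 10 of 50, 1 of them by 2-fold or more.

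Metallothioneins, small proteins that bind zinc and copper, moved apart within the family. MT1X had 34.7 and 33.1 CPM with AsiDNA, 242 and 166 with belinostat, 22.1 and 17.6 with DMSO and 486 and 509 with the combination (2.60 ± 0.11, adjusted p = 1.74e-29). MT1E (16.4 and 18.7 against 50.4 and 32.0 CPM, 1.26 ± 0.15) and MT3 (4.76 and 7.35 against 16.8 and 15.99, 1.46 ± 0.22) were also higher. MT2A had 633 and 666 CPM with AsiDNA, 256 and 205 with belinostat, 621 and 399 with DMSO and 621 and 630.1 with the combination (-1.49 ± 0.08, adjusted p = 7.84e-24). For MT1X the AsiDNA libraries lay between DMSO and belinostat and the combination lay above all, and for MT2A the combination lay just below AsiDNA. The genes are close copies, so reads could be shared between them, and the single values are uncertain. The zinc importers SLC39A8 (-1.17 ± 0.12) and SLC39A10 (-1.11 ± 0.10) were lower.

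MT1X and MT2A are printed because they went opposite ways with the same kind of promoter site. The metal response element, at which MTF1 acts, was searched as TGCACNC or TGCGCNC on both strands and is in capitals in the 250 bases before each start (RefSeq, GRCh38.p14, plus strand), chr16:56682220-56682469 for MT1X and chr16:56608334-56608583 for MT2A.
MT1X: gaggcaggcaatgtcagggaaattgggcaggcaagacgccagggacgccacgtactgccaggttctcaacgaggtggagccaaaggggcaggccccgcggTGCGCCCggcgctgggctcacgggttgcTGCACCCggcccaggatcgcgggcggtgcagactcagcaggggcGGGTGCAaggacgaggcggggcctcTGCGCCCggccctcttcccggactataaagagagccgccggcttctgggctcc
MT2A: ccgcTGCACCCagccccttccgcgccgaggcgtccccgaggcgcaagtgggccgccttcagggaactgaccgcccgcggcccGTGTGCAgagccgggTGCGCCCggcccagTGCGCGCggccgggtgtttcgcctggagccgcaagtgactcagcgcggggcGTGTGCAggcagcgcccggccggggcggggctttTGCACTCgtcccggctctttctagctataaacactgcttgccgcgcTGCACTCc
The first stretch holds 4 matches and the second 7. Of 13 metallothionein and zinc-control genes with a window, 8 held a match (61.5%, against 29.3% of all windows), and 2 of the 5 called lower did.

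Extracellular matrix genes were sorted by role and did not share a direction. Collagens and their modifying enzymes had 17 of 33 higher and 12 lower. The lysyl hydroxylase PLOD2 had 1740.0 and 1659 CPM with AsiDNA and 7364 and 6748 with belinostat (2.05 ± 0.10), and COL27A1 was higher (1.79 ± 0.09), while the collagen chaperone SERPINH1 was lower (151 and 155 against 27.9 and 34.5 CPM, -2.31 ± 0.10), as were COL6A1 (-0.80 ± 0.08) and COL6A2 (-0.78 ± 0.08). Fibronectin, FN1, had 13087 and 13798 CPM with AsiDNA and 32626 and 27312 with belinostat (1.157 ± 0.12), the laminin chain LAMA5 1.34 and 1.76 against 36.2 and 22.5 (4.27 ± 0.26), and fibrillin, FBN1, 1811 and 1841 against 406 and 385 (-2.21 ± 0.08). In the hyaluronan list, UGDH, which makes the precursor sugar for HAS2, was lower (78.4 and 72.0 against 20.4 and 19.5 CPM, -1.91 ± 0.12), as was the receptor HMMR (-1.41 ± 0.09), a gene also of mitosis. The depolymerase CEMIP was higher (39.6 and 38.4 against 118 and 89.0 CPM, 1.42 ± 0.11), and the receptor CD44 was not called (0.06 ± 0.08). Of the proteases, the membrane metalloprotease MMP14 (342 and 342 against 63.7 and 71.3 CPM, -2.35 ± 0.09), ADAMTS1 (-2.45 ± 0.09) and the urokinase receptor PLAUR (269 and 291 against 42.6 and 57.8 CPM, -2.50 ± 0.10) were lower, while the inhibitor TIMP3 (0.97 ± 0.08) and the plasminogen activator PLAT (1.59 ± 0.25) were higher. ADAMTS1 stood at 395 and 446 CPM with DMSO, 279 and 302 with AsiDNA, 50.1 and 56.8 with belinostat and 37.7 and 46.4 with the combination, so the combination was lowest.

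Signalling pathways held genes on both sides. Of 22 tested YAP-TEAD factors and targets 11 were higher and 9 lower, with a median of 0.09. Of 35 tested TGF-beta ligands, receptors and SMADs 14 were higher and 11 lower, with a median of 0.07. The YAP coactivator YAP1 (128 and 128 against 52.1 and 53.3 CPM, -1.28 ± 0.09) and its DNA-binding partner TEAD4 (-1.999 ± 0.21) were lower, while the YAP targets CCN2 (13.6 and 15.1 against 165 and 196 CPM, 3.65 ± 0.11) and CCN1 (23.7 and 24.0 against 75.9 and 103, 1.89 ± 0.12) were higher and AXL lower (-1.29 ± 0.08). For the TGF-beta pathway, the ligand TGFB2 (27.1 and 25.1 against 107 and 98.5 CPM, 1.97 ± 0.11), the receptor TGFBR1 (329 and 336 against 977 and 829, 1.44 ± 0.08) and the mediator SMAD3 (200.2 and 197 against 737 and 799, 1.95 ± 0.08) were higher. ID1 (-1.38 ± 0.09) and ID3 (-1.95 ± 0.16), targets of the BMP branch, were lower. In the Notch pathway, 12 of 21 tested genes were higher and 3 lower: the receptors NOTCH1 (96.8 and 103 against 38.3 and 33.3 CPM, -1.47 ± 0.10) and NOTCH3 (-1.29 ± 0.09) were lower, and the ligand JAG1 (30.5 and 29.4 against 84.3 and 78.0 CPM, 1.44 ± 0.11) and the repressor HES7 (3.71 ± 0.43) higher. Among WNT genes, the ligands WNT5A (1054 and 1062 against 326 and 367 CPM, -1.61 ± 0.08) and WNT7B (-1.98 ± 0.18) were lower. The receptor LGR4 (1.03 ± 0.09) and the pathway regulator DACT3 (6.105 ± 0.39) were higher. DACT3 had 3 and 1 counts with AsiDNA and 180 and 108 with belinostat. It passed the count filter through the belinostat side alone, which sets its direction, and the size of its difference is uncertain. WNT10B had 2 and 1 counts with AsiDNA and 71 and 40 with belinostat, a belinostat level 37.8 times as high (exact 95% limits, 12.6 and 186). WNT10B also passed the filter through the belinostat side alone, and its limits cover counting error only.

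Receptor kinases and their feedback genes were mixed as well. Of 22 tested receptor kinases 8 were higher and 9 lower, and of 23 feedback genes 8 were higher and 14 lower. IGF1R (29.9 and 31.8 against 64.7 and 64.1 CPM, 1.06 ± 0.12) and the ephrin receptor EPHA4 (11.4 and 11.03 against 47.9 and 48.5, 2.10 ± 0.14) were higher, and TYRO3 (-2.03 ± 0.13) and INSR (-0.88 ± 0.12) lower. The feedback inhibitors split, with SPRY2 lower (90.6 and 92.3 against 26.2 and 36.8 CPM, -1.56 ± 0.11) and ERRFI1, which restrains EGFR, higher (1398 and 1388 against 3114 and 2780.3, 1.08 ± 0.09). Of the immediate early genes, EGR2 (20.9 and 21.02 against 61.6 and 58.8 CPM, 1.52 ± 0.13) and NR4A1 (1.82 ± 0.20) were higher and FOSL1 (188 and 192 against 48.4 and 55.3, -1.88 ± 0.09) and MAFF (-1.68 ± 0.11) lower. Chromatin repressors divided too, with 13 higher and 14 lower of 36 tested polycomb and DNA methylation genes. The polycomb accessory PHF19 (66.0 and 63.8 against 5.88 and 6.497 CPM, -3.40 ± 0.16) and the methylation factor UHRF1 (-2.23 ± 0.10), both linked to cycling cells, were lower. EZH1 (1.505 ± 0.14), JARID2 (1.38 ± 0.12) and PHF1 (1.42 ± 0.12) were higher.

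Genes of neurons and of motile cilia had the highest medians among lists with at least 10 tested genes. Of 52 neuronal and synaptic genes, 28 were tested, of which 21 were higher and 3 lower (median 1.47). Of 37 motile-cilia genes, 21 were tested, 18 were higher and 1 lower (median 2.23). The other 24 neuronal and 16 cilia genes had too few counts. All 28 neuronal and all 21 cilia genes tested had at least 10 counts in both belinostat libraries, but only 20 and 15 had them in both AsiDNA libraries. Some therefore passed through the belinostat side alone, which sets their direction, and the counts are given as a description.

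UNC13A, which primes synaptic vesicles, had 2 and 0 counts with AsiDNA and 347 and 171 with belinostat, a belinostat level 265 times as high (exact 95% limits, 72.9 and 2190.2). DNAI1, an outer dynein arm chain of cilia, had 1 and 2 against 328 and 179 counts, a belinostat level 173 times as high (exact 95% limits, 58.7 and 839.8). Both intervals cover counting error only. Where AsiDNA expression was clearly present, the differences were smaller: SNAP25, a vesicle fusion protein, had 39.5 and 35.0 CPM with AsiDNA and 109 and 128 with belinostat (1.66 ± 0.10). DNAH7, a ciliary dynein, had 5.99 and 3.68 against 67.4 and 68.8 CPM (3.78 ± 0.17). The 3 neuronal genes that were lower were SYT11 (-0.68 ± 0.08), NRXN2 (-0.73 ± 0.11) and UCHL1 (-0.84 ± 0.08). FOXJ1, the master regulator of motile cilia, had no count in any of the 4 libraries, and the neuronal markers NEFL, DCX and RBFOX3 were too low to test.

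Markers of the tissue and of other cell types were read beside these results. Of 19 mesenchymal glioblastoma markers all were tested, of which 8 were higher, 6 lower and 5 not called. Their median was 0.06, and single markers ranged from -4.43 to 4.32. The summed level, which weighs abundant genes most, was 40795 and 41728 CPM with AsiDNA and 50431 and 44959.9 with belinostat. Of 15 astrocyte and radial glia markers 8 were tested, of which 5 were higher and 2 lower (median 0.85). The sum of the list was 6557 and 6612 CPM with AsiDNA and 2289 and 2065 with belinostat, and GFAP, HES5 and SOX2 had no counts in the 4 libraries. VIM, the intermediate filament vimentin, fell by more than that sum (5958 and 6036 against 1453 and 1349.7 CPM, -2.10 ± 0.09), while the stem-cell filament NES was higher (7.45 and 6.17 against 37.8 and 25.8, 2.23 ± 0.18). Oligodendrocyte markers had sums of 226 and 241 against 93.0 and 74.0 CPM, with 4 of 10 tested and OLIG1, SOX10, MOG and MAG at 0. Immune markers had sums of 16.2 and 17.3 CPM with AsiDNA and 6.46 and 6.83 with belinostat, with 2 of 12 tested, and CD3E, CD3D, AIF1, C1QA, C1QB and TYROBP at 0. Endothelial markers had sums of 12.9 and 12.9 against 26.9 and 22.7 CPM, with 2 of 8 tested and CDH5 and CLDN5 at 0. None of 8 epithelial markers was tested, and their sum stayed at or below 3.17 CPM. Whether a change in the mix of cells took part in the results was not tested.

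To see on which side the 5331 genes called and at least 2-fold apart lay without either agent, each other library was placed on a scale from 0, the AsiDNA mean, to 1, the belinostat mean. The median position was 0.02 for DMSO replicate 1 and 0.24 for DMSO replicate 2. Of the 3045 higher genes, both DMSO libraries were nearer AsiDNA for 1925 and nearer belinostat for 96, and 1024 were split. Of the 2286 lower genes, both were nearer AsiDNA for 2146 and nearer belinostat for 7, with 133 split. For the higher genes alone the DMSO medians were 0.03 and 0.35, so the replicates placed many of them differently. The combination libraries had median positions of 0.57 and 0.51. For lower genes both were nearer belinostat in 1243 cases and nearer AsiDNA in 678, and for higher genes in 1171 and 1280. The AsiDNA and belinostat means define the scale, so these positions are a description without a test.

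**Figure D5:**
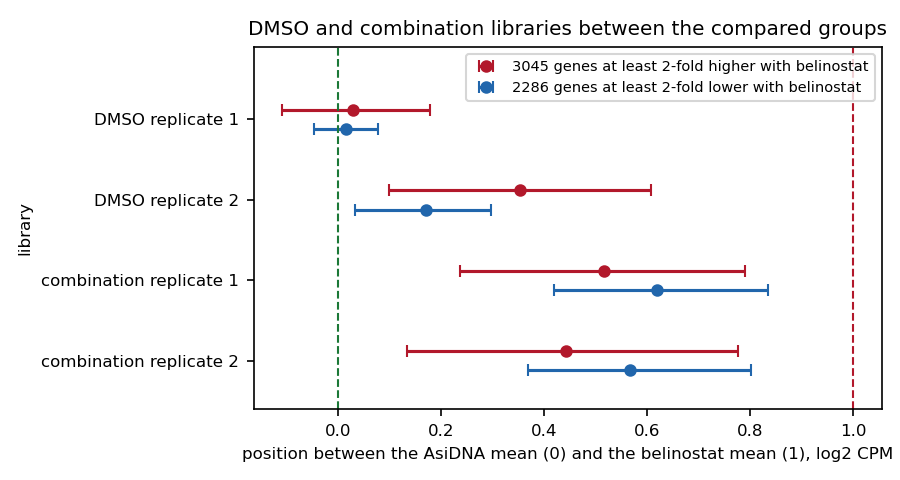
Position of each DMSO and combination library between the AsiDNA mean (0, green line) and the belinostat mean (1, red line) on log2 CPM, as the median (point) and the middle 50% (bar) over 3045 genes at least 2-fold higher (red) and 2286 at least 2-fold lower (blue) with belinostat. DMSO replicate 1 sits at AsiDNA, with medians of 0.03 and 0.01, and the combination libraries lie between 0.44 and 0.62.

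A small number of genes had both DMSO libraries nearer belinostat than AsiDNA, some of them between the groups. CCN1, a matricellular YAP target, had 23.7 and 24.0 CPM with AsiDNA, 75.9 and 103 with belinostat, 49.6 and 56.8 with DMSO and 62.0 and 54.9 with the combination. ITGA2, the collagen-binding integrin chain, had 169 and 169 CPM with AsiDNA, 71.6 and 61.8 with belinostat, 103 and 84.2 with DMSO and 123 and 126 with the combination (-1.33 ± 0.09). HES1, a Notch target, had 18.7 and 25.7 CPM with AsiDNA, 34.9 and 55.0 with belinostat, 41.8 and 53.4 with DMSO and 17.1 and 15.95 with the combination (1.005 ± 0.15). AsiDNA-treated cells, with or without belinostat, had less HES1 than any of the other 4 libraries. TNS1, a focal adhesion linker, had 9.04 and 10.9 CPM with AsiDNA, 27.2 and 23.0 with belinostat, 18.04 and 20.7 with DMSO and 17.3 and 15.2 with the combination (1.35 ± 0.17). The microtubule-severing protein FIGN (1.28 ± 0.19), the orphan receptor GPR135 (2.18 ± 0.20) and PSMD6-AS2 (1.01 ± 0.23), an antisense RNA whose reads are uncertain without the strand, were the other higher genes.

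Among lower genes of this kind, PSENEN, a subunit of gamma-secretase, had 43.1 and 46.5 CPM with AsiDNA, 28.8 and 27.0 with belinostat, 33.3 and 25.4 with DMSO and 55.0 and 56.7 with the combination (-0.68 ± 0.13). RRAGD, a Rag GTPase of the lysosome, had 25.4 and 23.1 CPM with AsiDNA, 16.1 and 14.7 with belinostat, 18.4 and 12.6 with DMSO and 39.1 and 41.8 with the combination (-0.65 ± 0.16). In both genes the combination was highest. The zinc finger gene ZNF175 (-0.69 ± 0.09), the pseudouridine synthase RPUSD2 (-0.68 ± 0.21) and the small Cajal body RNA SCARNA13 (-0.64 ± 0.15) followed, each under 2-fold. AsiDNA against DMSO was not tested here, and the DMSO replicates differed from each other.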

How the data were processed

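Whole-transcriptome libraries were made with a stranded total RNA kit after removal of ribosomal RNA, per the labels' protocols. The values are raw read counts per Ensembl gene as deposited, made by the authors with cutadapt 1.16, STAR 2.7.0 and featureCounts 1.6.3 on GRCh38, per the submitters' processing notes; for the strand setting, the annotation release and reads fitting several genes, nothing is given in the sources used here. Of 58884 genes, 13938 passed edgeR's filterByExpr on the 4 compared libraries. TMM factors were set against AsiDNA replicate 1, and edgeR 4.0.16 (R 4.3.3) fitted a quasi-likelihood model to the 4 libraries, with 2 residual degrees of freedom and spread shared over genes (prior degrees of freedom 56.7). P-values were adjusted over all tested genes (Benjamini-Hochberg, threshold 0.05), and the standard error is the log2 difference divided by the square root of F. The scripts were tested on simulated data. DESeq2 1.42.0 was an alternative. CPM of all 8 libraries share 1 TMM scale.

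Genes named are the 12 largest called rises and falls whose groups did not overlap (mean log2 CPM 3 or more), the 6 largest in each direction with both DMSO libraries nearer belinostat, up to 3 per direction and list with the smallest adjusted p, and a set list of drug targets, repair enzymes and sensors. CCNB2, CD44, CDKN1B, H2AC25, H4C16, NEFL, DCX and RBFOX3 fall outside that rule and were added once their values were known. The comparison, its gene lists and the motifs were chosen with earlier results of these data known. For genes with at most 3 counts over a group, the ratio of summed counts is given with an exact 95% interval, which covers counting error only. Promoter sequences are RefSeq's (GRCh38.p14), matched by symbol. Some genes within this rule are left out of the text.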

Additional observations from a re-analysis of the deposited data

How the results depend on the processing

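Under the alternatives that refit the model no named gene that was called, and that the alternative tested, turned its direction. Counting only called genes at least 2-fold apart gave 3045 higher and 2286 lower, and testing against a 1.5-fold change gave 3370 and 2965, both by construction smaller than 5223 and 5135. Leaving out 1 library at a time gave 4651 to 5044 higher and 4597 to 4968 lower, with the lone library of its group assumed to vary like the other group. DESeq2 called 4238 higher and 4388 lower, and a fit of all 8 libraries, whose DMSO pair lay apart, 4481 and 4574. Without the count filter 27986 genes were tested, the median of the 13938 genes of the original fit shifted by -0.10 on the log2 scale, and 5242 were higher and 5613 lower. With the replicate number as a block the counts were 5175 and 5107, and none of 333 named called genes lost its call. The replicate differences of AsiDNA and belinostat had a correlation of 0.00 over 8179 genes. Those of DMSO had one of 0.23 with belinostat and -0.37 with the combination. Such correlations cannot show whether the replicate numbers pair the samples. Of the 333, 12 lost their call with DESeq2, 14 with all 8 libraries, 10 without the filter and 2 to 11 when 1 library was left out. List medians changed sign for 8 of 57 lists without the filter, 6 with protein-coding genes only and 2 to 6 when 1 library was left out, in each case lists with a median under 0.3 in size. Depth limits genes under about 10 counts, and with 2 libraries a group the spread rests on sharing between genes.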
